A study of Drosophila melanogaster with 12 samples.

Results

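The testis meiotic arrest and sperm genes can, mia, sa, nht, Mst87F, dj, twe and bol, 8 of the 16757 genes with rows in the deposited table, were followed in Egg ChIP-seq libraries of ovarian somatic cells. They were chosen by name for their function in sperm formation, with earlier results of these libraries known, and were found through gene symbols and RefSeq accessions in 22 transcript rows. can, mia, sa and nht encode testis versions of TBP-associated factors (TAFs), Mst87F and dj encode sperm proteins, and twe and bol act at the male meiotic divisions. Of the 7 with enough reads to be tested, none was called above input in the Egg ChIP of the control cells, where 5.59% of all tested genes were. can was the only one called in the 3 comparisons made. It was called lower in ChIP than in input in control cells, as were 7.63% of all tested genes. Its ratio was called higher after Egg knockdown, as were those of 5.07% of all tested genes. Both calls of can were lost when the libraries were scaled another way.

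Egg, also called Eggless, is the fly SETDB1, a histone H3 lysine 9 methyltransferase, and chromatin immunoprecipitation with an anti-Egg antibody enriches the DNA it occupies. All groups were ovarian somatic cells (OSCs), a cultured line of the somatic cells of the Drosophila melanogaster ovary, fixed with formaldehyde 4 days into a knockdown. The control knockdown was of EGFP (siEGFP), and Egg itself was the target in the other group (siEgg). Each has an input and an Egg ChIP group, and each of these groups has 2 samples in the labels, but the table held 1 column for each without a replicate number. Whether a column is 1 sample or a pool is therefore not known, there is no spread between samples, and no p-value is given. The 4 libraries of the siPiwi and siWde knockdowns were not analysed here.

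In primary spermatocytes the testis TAFs and the testis meiotic arrest complex (tMAC) switch on genes for sperm differentiation. Males that lack one of these factors make spermatocytes that arrest before meiosis, which gives the class its name. The testis TAF and sperm genes are normally silent outside the testis, and methylation of histone H3 at lysine 9 is a known means of gene silencing in flies. The libraries hold genomic DNA, so they measure Egg occupancy and not expression, and they cannot check the knockdown of Egg or the silence of these genes.

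Depth, recovered from the table as whole reads, came to 2183061 in the input of siEGFP, 2293964 in the input of siEgg, 1796866 in the siEGFP ChIP and 1698148 in the siEgg ChIP. The median tested gene had 28 and 27 reads in the inputs and 20 reads in each ChIP. Reads over the sex chromosomes were also looked at, which cannot show the ovarian origin of the cells. Of 10 Y-linked male fertility genes in the table, 9 were listed at 0 in every library, which allows up to 3 reads each, and FDY had 2 reads in the siEGFP input. The median siEGFP input level of X genes was 7.73 RPKM (reads per kilobase of row, scaled to library size), against 7.08 to 7.25 RPKM on the large autosomal arms. Other genes placed on the Y did have reads, with 8 of its 38 genes in the table passing the read filter. Levels of a gene are given as RPKM summed over its rows.

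The members lie on 3 autosomal arms, with 2 on 2L, 3 on 3L and 3 on 3R (dm6). can is at 3L:10263909-10267111, sa at 3L:21405425-21406738, mia at 3R:5548115-5551168 and nht at 2L:15317954-15318901. Mst87F is at 3R:13827151-13828008, dj at 3R:7059315-7060524, twe at 2L:16259414-16261877 and bol at 3L:9097629-9134405. Their table rows hold transcript sequence, so introns were not counted, and the bol rows of 1801 to 6538 bases cover a small part of its span of 36777 bases. Overlapping genes may share reads with a member, since DNA reads carry no strand of origin: sa overlaps rgn, Mst87F overlaps lncRNA:CR43300, and twe overlaps EndoGI. Depth differed widely among the members. Mst87F, with rows of 446 and 515 bases, had 4 to 9 reads in a library, whereas bol had 101 to 134.

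**Figure D1:**
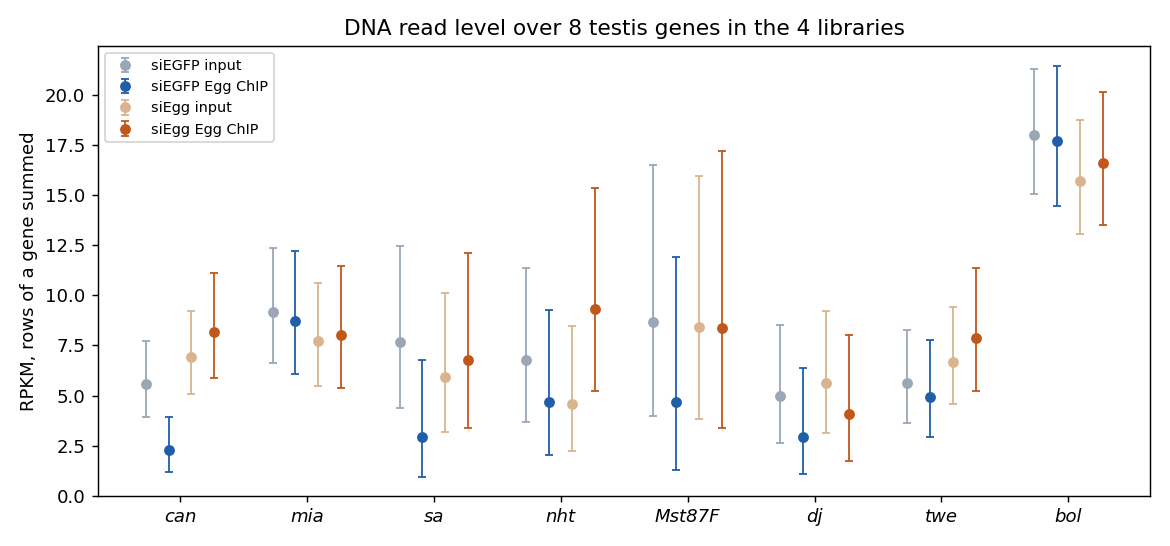
Level of each gene in RPKM (rows summed, vertical axis from 0) in the siEGFP input, siEGFP Egg ChIP, siEgg input and siEgg Egg ChIP libraries; bars are exact Poisson 95% intervals of the reads and cover counting error only. The siEGFP ChIP level of can, 2.26 RPKM, is the lowest of all values shown, and bol, a sum over 7 rows, is highest in every library.

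The first comparison asked whether Egg occupies the testis genes in control cells. A ratio is log2 of ChIP over input RPKM after adding 0.66 RPKM to each. A gene was called when its ratio was at least 2-fold in either direction and the exact 95% counting interval of its reads excluded 0. By that rule 5.59% of the 12553 tested genes were higher in ChIP and 7.63% were lower. These 702 higher and 958 lower genes became 1150 and 314 when ratios were centred on the median gene, and 622 and 275 with quantile scaling. Testing required at least 10 reads in at least 2 libraries. Of the 8 members, 7 passed, and Mst87F did not. dj passed through its inputs alone, which favours a low ratio. None of the 7 was called higher and 1 was called lower. Their median ratio was -0.47, against -0.30 for all tested genes, whose quartiles were -0.65 and 0.15.

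Of the testis TAF genes, can and sa had the lowest ratios. can encodes the testis counterpart of TAF5 and had 5.58 RPKM in the input (36 reads) and 2.26 in the siEGFP ChIP (12 reads). Its log2 ratio was -1.10 (interval -2.38 to -0.33), a ChIP level 0.468-fold that of the input. The call was lost at -0.80 after centring on the median gene, at -0.55 with quantile scaling and at -0.68 with a pseudocount 5 times larger. sa, the counterpart of TAF8, had 7.67 RPKM in the input (16 reads) and 2.91 in the ChIP (5 reads). Its ratio of -1.22 passed 2-fold, but its interval of -3.20 to 0.12 did not exclude 0. nht, the counterpart of TAF4, went from 14 input to 8 ChIP reads with a ratio of -0.47 (-1.99 to 0.83). mia, the counterpart of TAF6, stayed closest to input among the TAF genes, with 9.16 RPKM in the input, 8.74 in the ChIP and a ratio of -0.06 (-0.72 to 0.66). The fifth testis TAF gene, rye (listed as Taf12L), had 11 input and 4 ChIP reads and did not pass the filter. The median ratio of the 4 tested TAF genes was -0.78 in siEGFP and 0.20 in siEgg.

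The sperm genes were measured with the fewest reads. Mst87F encodes a small cysteine- and glycine-rich sperm tail protein and had 9 input and 4 ChIP reads and thus a ratio of -0.81 (-3.04 to 0.95). dj (don juan) encodes a lysine-rich sperm tail protein and had 13 input and 6 ChIP reads and thus a ratio of -0.65 (-2.52 to 0.66). It passed the read filter through the inputs alone, with 13 and 15 reads, so its low ratio is no support for a lower signal. Reads over dj fell unevenly on its 3 rows, which shows how the table splits a gene. The row of 1209 bases had 10 input and 0 ChIP reads, while the row of 1132 bases had 0 and 3 and that of 1152 bases had 3 and 3. Taken alone, the first row gave a ratio of -2.75 but did not pass the read filter, so the sum over rows is the value to read.

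For the meiotic genes the intervals included 0. twe (twine), the Cdc25 phosphatase of meiosis, had 5.61 RPKM in the input (25 reads) and 4.92 in the ChIP (18 reads), with a ratio of -0.17 (-1.15 to 0.74). bol (boule) encodes an RNA-binding protein needed for translation of twe in males, and its 134 input and 105 ChIP reads gave the narrowest interval of the members, with a ratio of -0.03 (-0.45 to 0.31). The ratio of bol depended on the scaling, at 0.27 after centring and -0.63 with quantile scaling. For the deepest row of bol, of 6538 bases, the reads were 62 and 42, and for its row of 2930 bases they were 30 and 29.

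**Figure D2:**
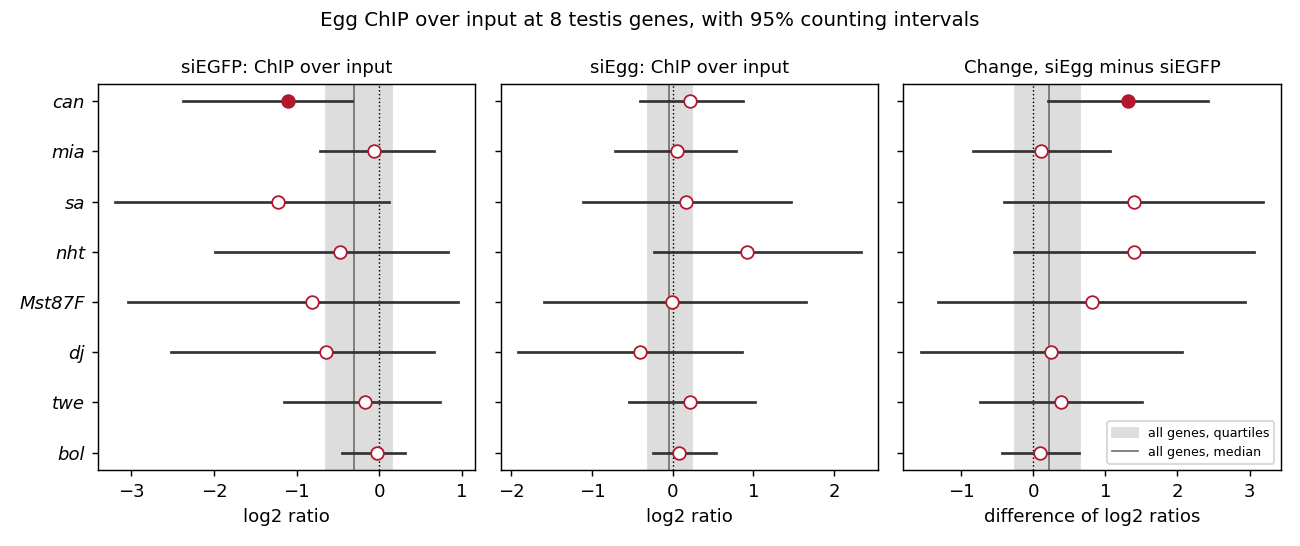
Log2 Egg ChIP over input in siEGFP and siEgg, and the difference between them, for the 8 genes; lines are 95% counting intervals, filled points are called, and grey marks the quartiles and median of the 12553 tested genes. The filled points are can at -1.10 in siEGFP and at 1.31 for the change; all other intervals include 0.

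All 8 ratios were below 0 in siEGFP, but so was the median gene. Relative to that median, 5 members lay below and 3 above (mia, twe and bol). With quantile scaling 7 were below 0, and with both inputs pooled 6 were. Summed reads of the 8 genes, 289 in the input and 192 in the ChIP, gave -0.31 (-0.58 to -0.04), close to the median of all genes. The 4 TAF genes summed to -0.59 (-1.07 to -0.12), the sperm pair to -0.86 (-2.10 to 0.28) and the meiotic pair to -0.09 (-0.44 to 0.26). These sums weight each gene by its reads, and the members are not replicates of each other.

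**Figure D3:**
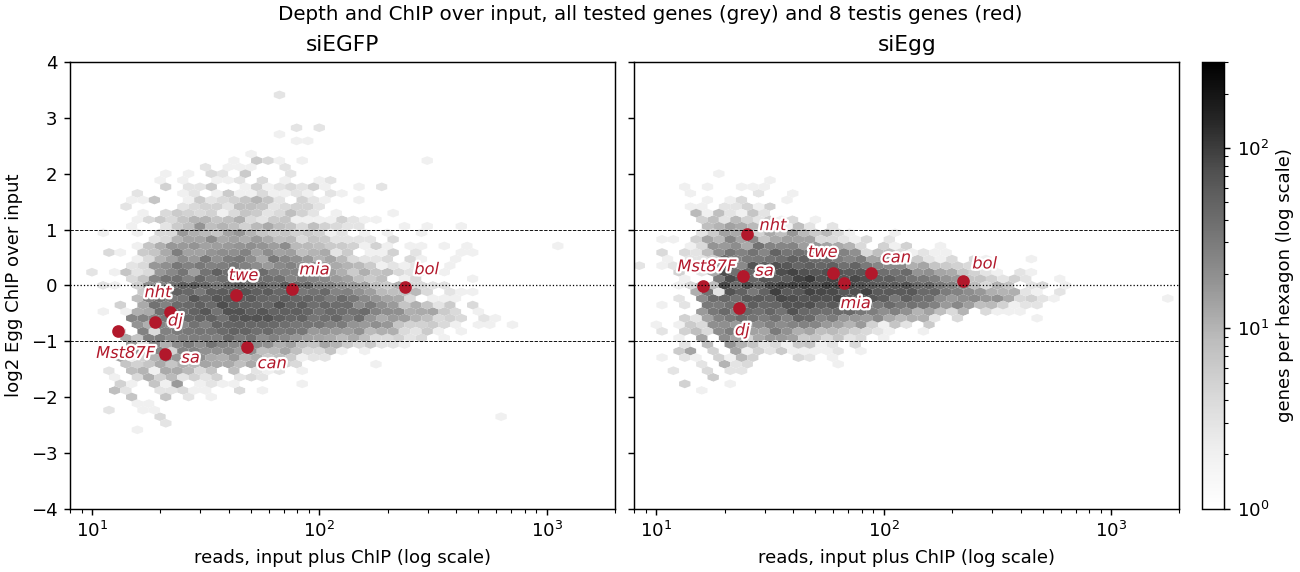
Reads of input plus ChIP (log scale) against log2 Egg ChIP over input in siEGFP and siEgg for the tested genes (grey, shaded by number) and the 8 testis genes (red); dashed lines mark 2-fold. In siEGFP can, at -1.10, lies below the lower dashed line together with sa at -1.22, and in siEgg no member lies outside the dashed lines.

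The second comparison was the same ratio in siEgg cells, where the protein that the antibody recognises was the knockdown target. Of all tested genes, 1.26% were higher in the siEgg ChIP and 1.12% were lower, or 158 and 141 genes, which became 201 and 109 after centring. None of the 7 tested members was called in either direction. Their median was 0.17, against -0.04 for all genes. can had 6.94 RPKM in the siEgg input (47 reads) and 8.18 in the ChIP (41 reads), with a ratio of 0.22 (-0.40 to 0.87). sa had 13 input and 11 ChIP reads and thus a ratio of 0.17 (-1.11 to 1.47).

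nht had the highest siEgg ratio of the members, 0.92 (-0.23 to 2.33), from 4.60 RPKM in the input (10 reads) and 9.32 in the ChIP (15 reads). mia had 38 input and 29 ChIP reads (0.05, interval -0.71 to 0.78). twe had 32 and 28 (0.22, interval -0.54 to 1.02), and bol had 123 and 101 (0.08, interval -0.24 to 0.54). The sperm genes were at or below input: Mst87F had 9 and 7 reads (-0.01, interval -1.59 to 1.66), and dj had 15 and 8 (-0.41, interval -1.92 to 0.86). Every member's interval included 0 in siEgg.

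The third comparison, the siEgg ratio minus the siEGFP ratio, asked whether ChIP signal over the testis genes depended on Egg. Over all tested genes 5.07% rose and 3.34% fell by the same rule, and the median change was 0.22. These 637 rises and 419 falls became 245 and 758 after centring, and 308 and 379 with quantile scaling. Of the 7 tested members, 1 rose and none fell, and the median change was 0.39. can rose by 1.31 (interval 0.21 to 2.42), or 2.49-fold. Its ChIP level went from 2.26 to 8.18 RPKM, a log2 difference of 1.60 (0.90 to 2.92), while its input went from 5.58 to 6.94 RPKM, a difference of 0.28 (-0.34 to 0.98). The change of can was no longer called after centring (1.06), with quantile scaling (0.83) or with a pseudocount 5 times larger (0.84). It remained called with both inputs pooled (1.60).

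sa and nht had changes of the same size as can on fewer reads. For sa the change was 1.40 (-0.40 to 3.19) and for nht it was 1.40 (-0.27 to 3.06), and neither interval excluded 0. Their inputs differed between the knockdowns by -0.34 for sa and -0.50 for nht, both within counting error, and their ChIP levels alone differed by 1.06 (-0.42 to 3.10) and 0.90 (-0.34 to 2.43). mia, the remaining TAF gene, had a change of 0.11 (-0.84 to 1.06). Changes of the other members were 0.81 (-1.32 to 2.94) for Mst87F, 0.25 (-1.56 to 2.06) for dj, 0.39 (-0.74 to 1.51) for twe and 0.10 (-0.43 to 0.63) for bol. All 8 were above 0. After centring 5 were, with quantile scaling 7 were, and with both inputs pooled 6 were. Summed reads of the 8 genes gave a change of 0.48 (0.12 to 0.85), and without can the sum gave 0.37 (-0.01 to 0.76). The median change of all tested genes, 0.22, lay within both of these intervals. It lay just below the interval of the 4 TAF genes, 0.86 (0.25 to 1.46). The same held for the members without bol, 0.75 (0.25 to 1.25), and both sums include can. The intervals of the sperm pair, 0.61 (-0.79 to 2.01), and the meiotic pair, 0.26 (-0.22 to 0.74), included it.

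Input levels, which enter both ratios, were compared with those of other genes. Relative to the median tested gene, siEGFP input levels ran from 0.687-fold for dj to 1.26-fold for mia, with bol at 2.48-fold from the sum of 7 unequal rows. Input levels of siEgg ran from 0.683-fold for nht to 1.25-fold for Mst87F, with bol at 2.34-fold. No member's input differed between the knockdowns beyond its counting interval.

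Each testis TAF has a paralogue used in all cells, and these ubiquitous genes, parts of the general transcription factor TFIID, served as a contrast. None of Taf4, Taf5, Taf6, Taf8 and Taf12 was called in any of the 3 comparisons. Their median ratio was 0.02 in siEGFP and 0.17 in siEgg, and their median change was 0.15. The difference between sa and Taf8 in siEGFP was the one whose interval excluded 0. Taf8 had 11 input and 18 ChIP reads (ratio 0.88), and sa lay 2.10 below it (interval -3.85 to -0.35). can lay 0.48 below Taf5 (-1.69 to 0.72), whose own ratio was -0.61 from 39 and 20 reads. nht lay 0.49 below Taf4, and mia 0.36 below Taf6, within counting error. Of these 4 pairs the changes differed most for sa, by 2.14 (-0.18 to 4.45). twe lay 0.31 below stg, the Cdc25 of mitotic cycles (-1.39 to 0.77). dj lay 0.71 below its tandem neighbour djl (-2.44 to 1.03). The 4 relatives of Mst87F at one locus, Mst84Da to Mst84Dd, had 0 to 2 reads each in the siEGFP ChIP against 4 to 6 in the input, too few to be tested.

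Other genes of the same programme were read beside the shares of all tested genes called in siEGFP, 5.59% higher and 7.63% lower. In the tMAC complex, which acts with the testis TAFs, 1 of 6 genes was higher in the siEGFP ChIP and none was lower, with a median of -0.55. That gene, achi, went from 33 reads in the input to 65 in the ChIP (ratio 1.20, interval 0.63 to 1.91), a call lost with a pseudocount 5 times larger (0.97). Its adjacent and nearly identical copy vis had 29 and 11 reads (-0.91, interval -2.27 to -0.07), so how reads were shared between the copies is uncertain for both. In siEgg achi had a ratio of 0.32 and vis 0.26, and no tMAC gene was called there or for the change. The median of -0.55 includes tomb, which passed the read filter through its inputs alone (15 and 11 reads).

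Of 12 further spermatocyte regulators, 2 were lower in the siEGFP ChIP and none was higher, with a median of -0.15. tbrd-3, a testis bromodomain gene, had 12 input and 2 ChIP reads (-1.86, interval -5.51 to -0.14). It passed the read filter through the 2 inputs alone, with 12 reads in each, so its low ChIP value is a description and no support for a lower signal. Rbp4, an RNA-binding repressor of cyclin B translation, had 21 and 7 reads (-1.12, interval -2.78 to -0.02). The bromodomain gene tbrd-2 rose in siEgg by 1.32 (0.29 to 2.34), from ratios of -0.84 to 0.48. None of the 12 was called in siEgg. The calls of tbrd-3 and Rbp4 were lost after centring and with quantile scaling, and that of tbrd-2 with pooled inputs (0.87).

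Of 23 other sperm genes, 15 passed the filter and none of them was called in siEGFP. Their median was -0.59, and their values ran from -0.96 to 0.05. In siEgg the sperm chromatin gene Mst77F was higher at 1.34 (0.15 to 3.07), a call lost with both inputs pooled (0.60) and with the larger pseudocount (0.91). The sperm aminopeptidase gene S-Lap5 was lower at -1.10 (-2.20 to -0.32), a call lost with both inputs pooled (-0.98) and with the larger pseudocount (-0.79). Of all tested genes 1.26% were higher in siEgg and 1.12% were lower. The change of Mst77F was called at 1.86 (0.19 to 3.52), with 7 siEgg input reads against 18 in siEGFP. With both inputs pooled its change was 0.61 and no longer called. Summed reads of the 23 genes, including those that did not pass the filter, gave -0.61 (-0.83 to -0.40) in siEGFP. In siEgg they gave -0.19 (-0.41 to 0.02). The median of all tested genes lay above the first interval, at -0.30, and within the second, at -0.04.

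**Figure D4:**
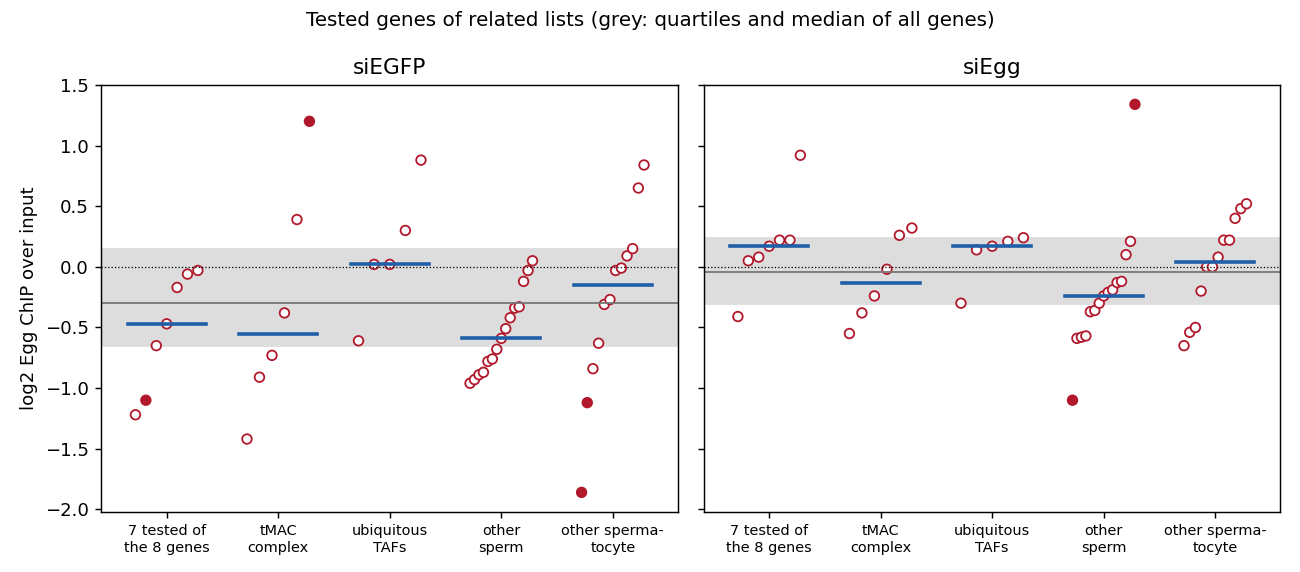
Log2 Egg ChIP over input in siEGFP and siEgg for the tested genes of 5 lists (circles, filled where called), with the list median as a blue bar and the quartiles and median of all tested genes in grey. In siEGFP the 5 medians drawn run from -0.59 for other sperm genes to 0.02 for the ubiquitous TAF genes, all within the grey quartile band of -0.65 to 0.15. The testis TAF genes are not drawn as a list of their own, and their siEGFP median of -0.78 lies below this band.

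Genes beside the members were compared to see whether a value belonged to a wider region. Within 10 kb of the members' spans lay 24 other tested genes, and none of them was called in siEGFP. Of all tested genes 5.59% were higher there and 7.63% were lower. In siEgg 1 of the 24 was higher and none was lower, against 1.26% and 1.12% of all tested genes. For the change 3 of the 24 rose and none fell, against 5.07% and 3.34% of all tested genes. Besides CG4935 beside twe, the rises were of Sodh1, 4774 bases from dj, and Pi4KIIalpha, 6495 bases from mia, both named after their values were seen. Sodh1 was also the gene called higher in siEgg, at 1.65 (0.69 to 3.14), with a change of 2.08 (0.69 to 3.47) and 9 siEgg input reads against 27 in siEGFP. Pi4KIIalpha rose by 1.19 (0.23 to 2.15). The median ratio of the 24 was -0.03 in siEGFP and -0.03 in siEgg. The nearest tested genes beside can were lncRNA:CR45242 at 2371 bases (9 input and 9 ChIP reads in siEGFP, ratio 0.25) and lncRNA:CR44539 at 16138 bases (12 and 9 reads, ratio -0.12). can lay 1.35 below the former (-2.94 to 0.25) and 0.98 below the latter (-2.51 to 0.55). Neither difference exceeded its counting interval.

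Around sa, the neighbours had ratios below 0 in siEGFP, as did the median of all tested genes (-0.30), and none of these ratios was called. rgn, whose span includes sa, had 56 input and 25 ChIP reads in siEGFP and a ratio of -0.80 (-1.62 to -0.18), and its change was 0.65 (-0.22 to 1.52). barc, 13650 bases away, had -0.75 in siEGFP and rose by 1.14 (0.03 to 2.25). CG32437, at 45558 bases, had -0.57 and a change of 1.12 (-0.03 to 2.28). sa differed from each by less than its counting error. Beside nht, esg had 0.02 and CG15262 had -0.56, and beside mia, CG2519 had -0.02 and Pcmt -0.45.

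Next to twe, CG4935 at 264 bases had 17 input and 5 ChIP reads in siEGFP (-1.28, interval -3.28 to 0.01) and rose in siEgg by 2.07 (0.39 to 3.74), while PRL-1 on its other side had 0.43 in siEGFP. dj and djl lie 243 bases apart, and the gene on the other side of dj, CG1979, had -0.06. Beside Mst87F, Nsf2 had 0.59 and lncRNA:CR43642 had -1.05, neither called. Beside bol, CG32032 had 0.61 and Dhpr 0.28, neither called.

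**Figure D5:**
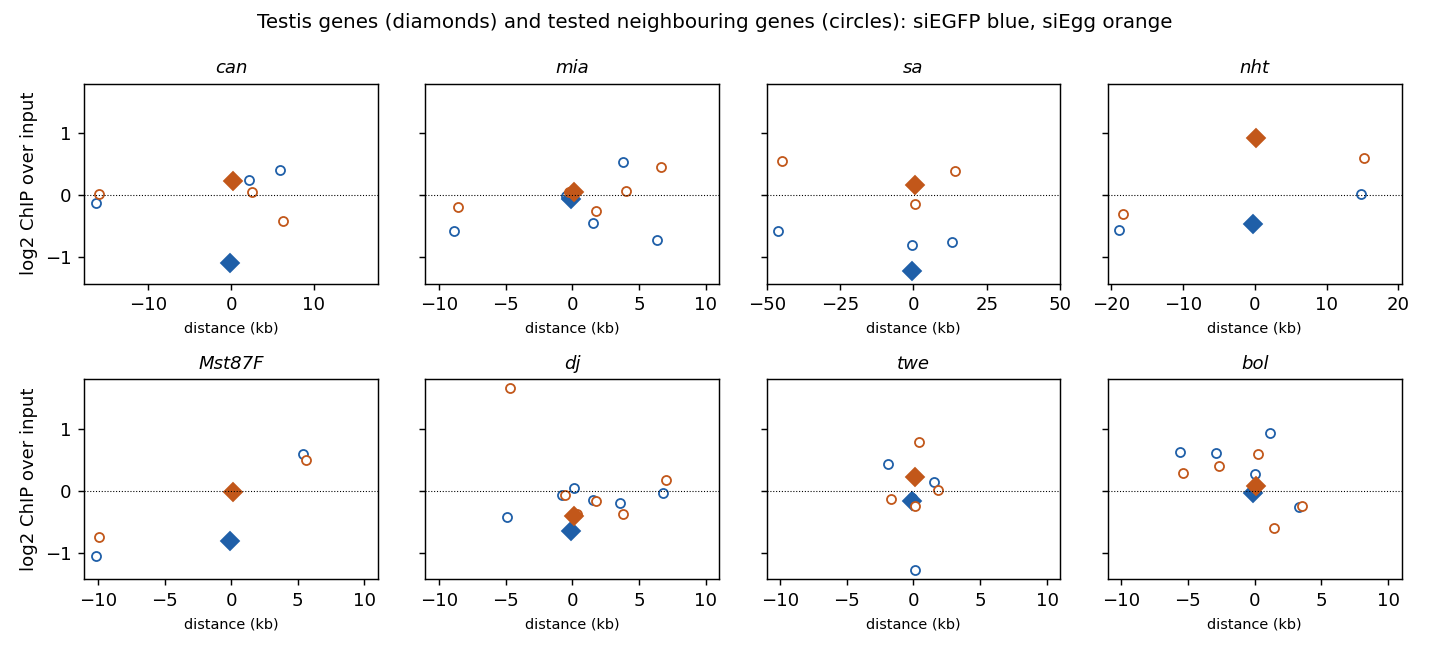
Distance in kb from each testis gene (diamond at 0) to its nearest tested genes and other tested genes within 10 kb (circles), against log2 Egg ChIP over input in siEGFP (blue) and siEgg (orange), which are drawn slightly apart; overlapping genes are at 0. The siEGFP diamond of can, at -1.10, lies below its drawn neighbours, while around sa the neighbours lie between -0.80 and -0.57 in siEGFP.

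The 3 tested genes whose 4 levels came closest to the mean profile of the members were CG31098, adp and CG5321, at Euclidean distances of 0.0488, 0.0498 and 0.0777 on the log2 RPKM scale over the 4 libraries. adp had 38 input and 20 ChIP reads in siEGFP and 39 and 31 in siEgg, with ratios of -0.58 and 0.10. None of the 3 was called in any comparison.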

How the data were processed

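Egg ChIP and input DNA of ovarian somatic cells were deposited as 1 table of 35327 RefSeq transcript rows and 175 transposon rows with 4 value columns. The values behave as RPKM, reads scaled by the authors to row length and library size, as judged from their steps, since no label names the unit. Per the submitters' processing notes, reads were mapped with Bowtie2 2.2.4 to dm6; counting, filters and pooling of samples are not given in the sources used here. The values of each row were resolved into the smallest whole reads shared by the 4 columns, with depths anchored on 5S rRNA rows of 135 bases. Where the row length so obtained was not whole, reads and length were multiplied up to the first whole length. A common factor in a row whose length was already whole would go unseen and leave its reads too low. Within 0.0001 reads all 34762 rows above 0 came out whole, which a row with 1 value above 0 does by construction. The lengths so recovered equalled the gene span in 4917 rows and exceeded it in 32. Depths and intervals rest on that anchor.

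Rows were matched to genes by accession (34887 rows) or by symbol (35084 in all) with positions from the RefSeq annotation of Release 6, the assembly named dm6. RPKM and reads were summed over the rows of a gene, since reads appear to be divided among them. Ratios used a pseudocount of 0.66 RPKM, a median input level of all genes divided by 10. Intervals of ratios were Clopper-Pearson on summed reads without the pseudocount. For changes and for differences between genes, intervals came from the normal approximation, after adding 0.5 to every count. All intervals cover counting error only. Calls needed a log2 size of at least 1 and an interval excluding 0. Genes with at least 10 reads, and with RPKM above the pseudocount, in at least 2 libraries were tested. Some passed through the inputs alone, as dj, tomb, tbrd-3, lncRNA:CR44539 and lncRNA:CR43642 did. The planned tests were used as written. Named were the members, paralogues, called genes of the lists and nearest tested neighbours. Also named were the 3 genes nearest in profile with at least 20 reads in each input. Some uncalled genes (vis, tomb, rgn, FDY, rye) and Sodh1 and Pi4KIIalpha were named after their values were seen. The members and lists were chosen with earlier results of these data known, and CCY and WDY of the Y list were not found under these names. Calculations used Python 3.11.15, numpy 2.4.6, pandas 2.3.3 and scipy 1.17.1, and were tested on simulated data.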

Additional observations from a re-analysis of the deposited data

Results flagged for a closer look

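At 5 of the members, list genes and nearest tested neighbours, the ChIP lay below its input in siEGFP and above it in siEgg, and the change was called. Of all tested genes 5.07% rose, and their median siEGFP ratio was -0.30. The 5 are can (1.31), Mst77F (1.86), tbrd-2 (1.32), barc (1.14) and CG4935 (2.07). Each value is a log2 change of the ChIP over input ratio, siEgg minus siEGFP. Sodh1 (2.08) and Pi4KIIalpha (1.19), named after their values were seen, had the same pattern and are not among the 5. With 1 column of each kind in the table, the difference between the knockdowns was not tested against a spread between samples. can and CG4935 remained called with both inputs pooled, while Mst77F, tbrd-2 and barc did not (0.61, 0.87 and 0.71). After centring on the median gene the changes of tbrd-2 and CG4935 remained called, and those of can, Mst77F and barc did not (1.06, 1.60 and 0.89). With a pseudocount 5 times larger none of the 5 was called.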

How the results depend on the processing

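No paired analysis was possible because the columns carry no replicate number, and leaving out a replicate was not possible for the same reason. In siEGFP, 1 member was called lower, and none after centring on the median gene, with quantile scaling or with the pseudocount 5 times larger; past 2-fold alone 2 were. The members' median of -0.47 became -0.18, -0.12 and -0.11 after centring, with quantile scaling and where both inputs had to hold at least 20 reads (4 members). For the change, 1 member rose, and 0 after centring, with quantile scaling or with the larger pseudocount; past 2-fold alone 3 did. The median change of 0.39 became 1.31 over the 5 members tested by the row with most reads alone. No member was called in siEgg under any alternative run. The median siEGFP ratio of all genes, -0.30, became -0.05 with quantile scaling, and their median change went from 0.22 to 0.03.

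Counts over all genes moved more. In siEGFP the 702 higher and 958 lower genes became 1150 and 314 after centring, and 200 and 623 where both inputs had to hold at least 20 reads. The lower genes numbered 255 with the larger pseudocount and 275 with quantile scaling. In siEgg the 158 higher and 141 lower genes became 76 and 50 with the larger pseudocount, 9 and 82 with at least 20 input reads, and 274 and 289 past 2-fold alone; with quantile scaling 327 were higher. For the change, 637 rises and 419 falls became 67 and 186 with the larger pseudocount, 245 and 758 after centring, and 1485 and 822 past 2-fold alone. Rises numbered 1024 without a pseudocount and 308 with quantile scaling, and falls 181 with at least 20 input reads. The cause of these shifts was not tested. Under the input minimum 7667 genes were tested, against 12553 in the main run, so those counts have another total. Reads limit the small genes most: of the members, Mst87F could not be tested and 4 had at least 20 reads in each input.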
